A study of Mus musculus with 24 samples.

Results

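Hepatic expression of 10 genes of amino acid transport and of the integrated stress response was examined in the liver of mice that carry or lack the major urinary protein (Mup) gene cluster. The set holds 4 groups of roles: Slc3a2 and its partner chains Slc7a5 and Slc7a11, the transporters Slc7a2 and Slc38a2, the transcription factors Atf4 and Ddit3, and the ATF4 targets Trib3, Chac1 and Asns. The members were named by symbol, as 10 of the 25746 genes listed, and 9 of them were expressed highly enough to be tested, which required 0.66 CPM (read counts scaled to a common library size) or more in 6 or more of the 24 libraries. They were assembled with earlier results of these data known, around Slc3a2. Slc3a2 is taken to have been chosen by its values in mKO against mWT mice, an assumption, since the comparison used is not stated. There it is 1 of 9 genes outside the Mup family that pass an adjusted p-value of 0.05. Its values in comparisons with these males are therefore given as a description with no test. It would have missed this threshold in 9 of 34 alternative runs.

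RNAseq was performed on 24 livers, one library per mouse, from males (m) and females (f) aged 12 weeks on a C57/BL6N background. The mWT and fWT groups held 6 wildtype mice each, and the mKO and fKO groups held 6 mice each that were homozygous for the CRISPR/Cas9 deletion of the whole Mup cluster. The line goes back to a single founder and the mice of both genotypes came from crosses of heterozygous parents, so a change linked to the deleted region on chromosome 4 cannot be told apart from the loss of Mup. None of the members lies on that chromosome. All 4 groups received the same chow. Per the study's methods, mice were fasted for some hours, scanned by microCT under isoflurane anaesthesia and killed directly afterwards, which all groups share. Library totals lay between 15361901 and 26261394 counts. Summed counts over the 22 Mup genes were between 272548 and 741314 in mWT and between 70768 and 110248 in fWT mice, and at most 10 in mKO and at most 11 in fKO mice. The summed level of the hepatocyte markers (Alb, Ttr, Apoa1, Tat, Serpina1c) was at least 85471 CPM in every mouse, while pancreatic markers did not exceed 0.0457 CPM. In whole liver, a lower number of cells of a type and a lower RNA content per cell cannot be told apart.

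The integrated stress response starts with kinases that phosphorylate the initiation factor eIF2 when amino acids run short, when unfolded proteins accumulate in the endoplasmic reticulum, or when heme or viral signals call for it. Phosphorylated eIF2 slows protein synthesis in general, but allows translation of the Atf4 mRNA. ATF4 protein then activates genes for amino acid import, amino acid synthesis and the charging of tRNA, and under lasting stress the factor CHOP (Ddit3) and its partners. Since ATF4 is controlled largely by translation, the level of its mRNA does not measure its activity. The liver imports, converts and releases most amino acids of the body, and SLC3A2 (4F2hc, CD98) is the heavy chain that carries several exchangers of large neutral, basic or sulfur amino acids to the plasma membrane.

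On a scale per exon length, Slc7a2 had the highest level of the set, with a mean over the 4 groups of 126 CPM per kb of exon. Slc38a2 followed with 36.5 and Atf4 with 31.7 CPM per kb, and these neighbours did not differ beyond their spread, since Slc38a2 lay above Atf4 in 16 of the 24 mice. Slc3a2 came next with 8.8 CPM per kb, below Atf4 and above Trib3 in each of the 24 mice. Trib3 (3.17), Asns (2.69), Chac1 (2.05) and Ddit3 (1.76 CPM per kb) formed a low group whose ranges over mice overlapped, and Asns owed its place to the males. Slc7a5 was lower again at 0.675 CPM per kb, below Ddit3 in each mouse, and Slc7a11 was at the end with 2 counts in all libraries together. The plot of CPM by mouse shows these levels for the 9 tested members.

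**Figure D1:**
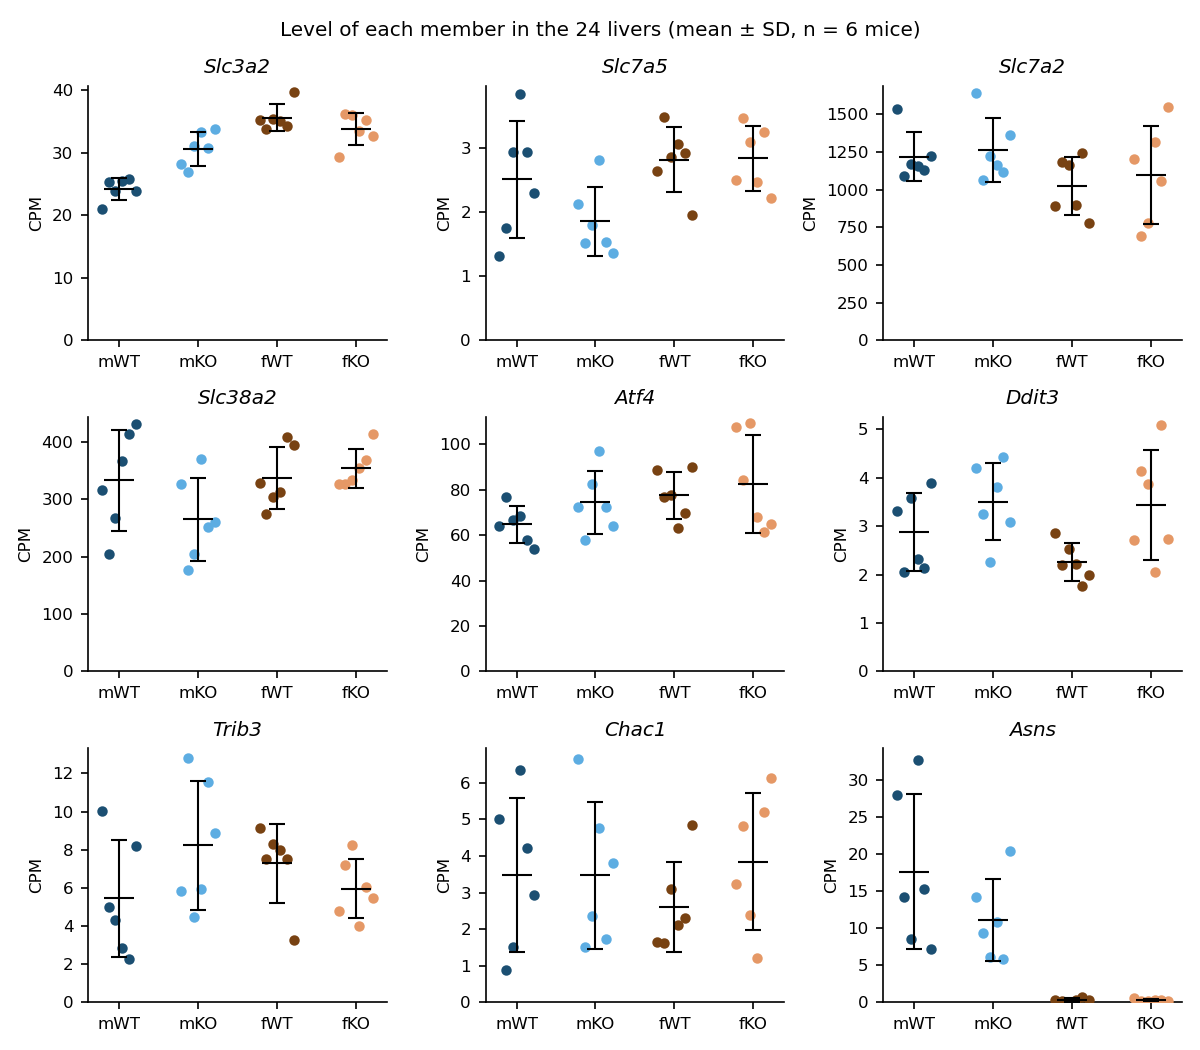
Level of the 9 tested members in CPM (vertical axes, each from 0) for every mouse of the mWT, mKO, fWT and fKO groups; points are mice and black bars give the mean ± SD of 6 mice. Slc3a2 was lowest in mWT mice (21.1 to 25.7 CPM), and Asns was present in males (5.83 to 32.7 CPM) and at or under 0.769 CPM in females.

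ATF4 and its partners of the C/EBP family bind composite elements of the form TGATGNAA, and such letters were looked for on both strands of the promoter windows (250 bases before to 50 after the transcript start) that RefSeq gives for GRCm38.p6. Windows were found for 8 of the 10 members, not for Slc7a2 and Slc7a5. The letters occurred in 4 of the 8 windows, and in 3.97% of all 32851 windows. These are the windows of Chac1, Trib3, Slc7a11 and Asns, and the stretches around the matches are shown because they belong to the member that was not detected and to the member with the largest sex difference, among others. Chac1, Trib3 and Asns are in the set as ATF4 targets, so the share among members is a description and no test. The capitals mark TGATGNAA or its reverse complement.
Chac1 (chr2:119351009-119351096, plus strand): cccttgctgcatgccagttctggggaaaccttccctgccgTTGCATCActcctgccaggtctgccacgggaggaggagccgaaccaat
Slc7a11 (chr3:50443615-50443719, minus strand): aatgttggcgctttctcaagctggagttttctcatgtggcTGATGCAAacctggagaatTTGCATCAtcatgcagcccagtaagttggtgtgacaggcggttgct
Trib3 (chr2:152344028-152344057, minus strand): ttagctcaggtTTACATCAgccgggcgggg
Asns (chr6:7693214-7693243, minus strand): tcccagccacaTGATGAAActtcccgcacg
Counted from the RefSeq transcript start, the match of Chac1 began 193 bases before it and those of Slc7a11 66 and 47 bases before it. That of Asns began 23 bases before this start and that of Trib3 14 bases after it. By the annotated gene coordinates given below, the Asns match lies inside the gene and the Trib3 match upstream of it. With the stricter TGATGCAA, 2 windows of members remained, those of Chac1 and Slc7a11, beside 0.895% of all windows. The windows of Slc3a2, Slc38a2, Atf4 and Ddit3 held no match, which says only that these letters are not in them. The annotated gene of Slc3a2 extends further upstream than the start that RefSeq uses here, so only one of its starts was read.

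The first comparison asked whether loss of Mup changed Slc3a2, the heavy chain itself (ENSMUSG00000010095, chromosome 19, 8706882 to 8723369, minus strand, GRCm38). In mWT mice it had 21.1, 24.6 and 25.7 CPM (lowest, median and highest of 6 mice), and in mKO mice 26.9, 30.9 and 33.8 CPM. All 6 mKO mice lay above all 6 mWT mice. The difference was 0.34 on the log2 scale (SE 0.07), or 1.26-fold, between means of 24.2 ± 1.76 and 30.6 ± 2.73 CPM (SD, n = 6). Among genes outside the Mup family, Slc39a8, Nfic and Cobl lay just inside the threshold taken to have chosen Slc3a2, at log2 differences of 0.51, −0.45 and −0.60. Just outside it were Pnp (0.60), Serpinb1a (1.45) and Slc16a12 (−0.54).

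In females, whose mice do not enter that comparison, the values of Slc3a2 were 33.8, 35.1 and 39.7 CPM in fWT and 29.3, 34.4 and 36.2 CPM in fKO mice. The groups overlapped, and 3 fKO mice lay below all fWT mice. The log2 difference was −0.07 (SE 0.07, edgeR adjusted p = 0.944). The difference between the male and the female values was 0.41 (SE 0.10) and the mean over both sexes 0.13 (SE 0.05) on the log2 scale, both given with no test since they contain the males.

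Slc3a2 was lower in wildtype males than in wildtype females. All 6 mWT mice lay below all 6 fWT mice, by 0.55 on the log2 scale (SE 0.07), or 1.47-fold. The sexes did not overlap for 7.7% of all genes in WT mice. No test is given, since these mWT values and the mKO values below are taken to have chosen the gene. Among KO mice the same sex difference was −0.14 (SE 0.07), with 2 of 6 mKO mice below all fKO mice. In order, mWT was lowest, followed by mKO, fKO and fWT. The ranges of mKO, 26.9 to 33.8 CPM, and fKO, 29.3 to 36.2 CPM, overlapped, as did those of fKO and fWT.

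The 5 genes whose level followed Slc3a2 most closely over the 24 mice, once the group means were removed, were Bcap31 (Pearson's r = 0.76), Pigu (0.72), Atp6ap1 (0.71), Gnas (0.66) and Cables2 (0.66). Bcap31 encodes a chaperone and sorting protein of the endoplasmic reticulum, Pigu a subunit of the enzyme that attaches GPI anchors, Atp6ap1 an accessory subunit of the vacuolar proton pump and Gnas the stimulatory G protein alpha subunit. All mice share the scaling of the libraries, and the correlations are a description of the best of 12330 genes.

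The partner chains of SLC3A2 were scarce. Slc7a5 (LAT1, large neutral amino acids; ENSMUSG00000040010, chromosome 8, 121881150 to 121907694, minus strand) had 1.31, 2.61 and 3.83 CPM in mWT, 1.37, 1.66 and 2.81 CPM in mKO, 1.96, 2.89 and 3.47 CPM in fWT and 2.22, 2.79 and 3.47 CPM in fKO mice. Its counts of 21 to 92 per library leave a large counting error, and it lies within a readthrough gene on the other strand. The log2 difference of mKO from mWT was −0.44 (SE 0.22, edgeR adjusted p = 0.486) and that of fKO from fWT 0.02 (SE 0.20, edgeR adjusted p = 0.994). While mWT and fWT mice overlapped (−0.15, SE 0.21, edgeR adjusted p = 0.669), 5 of 6 mKO mice lay below all fKO mice. That last difference was −0.61 (SE 0.21), with an edgeR adjusted p of 0.0544, and DESeq2 gave 0.0345.

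Slc7a11 (xCT, the cystine and glutamate exchanger; ENSMUSG00000027737, chromosome 3, 49892526 to 50443614, minus strand) had 0 counts in 22 of the 24 libraries and 1 count in one fWT and one fKO library. Since 3 counts correspond to between 0.113 and 0.199 CPM, an expression under this level could not be detected. The gene was not tested, so 9 members remain for all counts that follow.

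Of the other light chains, which were picked after their values had been seen, Slc7a8 (LAT2) and Slc7a7 (y+LAT1) were as scarce as Slc7a5. Slc7a8 had a mean of 1.76 ± 0.383 CPM in mWT and 2.90 ± 0.602 CPM in fWT mice (SD, n = 6) and was lower in wildtype males by 0.72 on the log2 scale (SE 0.22, edgeR adjusted p = 0.0247). Among KO mice the difference of Slc7a8 was −0.38 (SE 0.22, edgeR adjusted p = 0.264). Its mKO mice had 1.85 ± 0.706 CPM, 0.08 from mWT mice on the log2 scale (SE 0.23, edgeR adjusted p = 0.952). Slc7a7 differed from mWT to mKO mice by −0.13 (SE 0.21, edgeR adjusted p = 0.899).

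The other transporters of the set, which work without SLC3A2, were abundant. Slc7a2 (CAT2, arginine, lysine and ornithine; ENSMUSG00000031596, chromosome 8, 40862396 to 40922308, plus strand) had 1088, 1166 and 1538 CPM in mWT, 1066, 1193 and 1641 CPM in mKO, 781, 1030 and 1245 CPM in fWT and 695, 1129 and 1549 CPM in fKO mice. All 4 groups overlapped. The log2 differences were 0.05 (SE 0.16) between mKO and mWT and 0.10 (SE 0.16) between fKO and fWT mice, and the sex differences were 0.25 in WT and 0.20 in KO mice (SE 0.16 each). None had an edgeR adjusted p-value under 0.317.

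Slc38a2 (SNAT2, the sodium-coupled importer of small neutral amino acids; ENSMUSG00000022462, chromosome 15, 96687392 to 96699730, minus strand) had 204, 341 and 431 CPM in mWT and 176, 256 and 370 CPM in mKO mice. In fWT mice it had 274, 320 and 408 CPM, and in fKO mice 326, 344 and 413 CPM. The spread within males was wide, with a coefficient of variation of 26.4% in mWT and 27.5% in mKO mice, and smaller in fKO mice at 9.5%. The log2 difference of mKO from mWT was −0.33 (SE 0.17, edgeR adjusted p = 0.507) and that of fKO from fWT 0.07 (SE 0.17, edgeR adjusted p = 0.977). Of the mKO mice, 4 lay below all fKO mice, a log2 difference of −0.42 (SE 0.17, edgeR adjusted p = 0.104). Slc7a5 and Slc38a2 thus had their lowest group median in mKO mice, where Slc3a2 was above its mWT level, but neither passed the test there.

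The transcription factors were measured next. Atf4 (ENSMUSG00000042406, chromosome 15, 80255184 to 80257541, plus strand) had 54.1, 65.4 and 76.8 CPM in mWT, 57.9, 72.3 and 97.0 CPM in mKO, 63.4, 77.1 and 89.9 CPM in fWT and 61.5, 76.1 and 109 CPM in fKO mice. The groups overlapped in each comparison. The log2 difference was 0.20 in males (SE 0.14, edgeR adjusted p = 0.674) and 0.09 in females (SE 0.14, edgeR adjusted p = 0.966). Wildtype males had 0.26 less than wildtype females on the log2 scale (−0.26, SE 0.14, edgeR adjusted p = 0.218).

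Ddit3 encodes CHOP, a factor of the late response (ENSMUSG00000025408, chromosome 10, 127290774 to 127296288, plus strand). It had 2.05, 2.82 and 3.88 CPM in mWT and 2.27, 3.53 and 4.44 CPM in mKO mice, then 1.76, 2.21 and 2.87 CPM in fWT and 2.05, 3.31 and 5.09 CPM in fKO mice. In females 3 of 6 fKO mice lay above all fWT mice, and in males 2 of 6 mKO mice above all mWT mice. The log2 difference was 0.61 in females (SE 0.21) and 0.29 in males (SE 0.21). Over both sexes Ddit3 was higher by 0.45 (SE 0.15). In females and over both sexes the unadjusted p-value was under 0.01, the cut-off the study used, which held for 0.876% and 2.83% of all genes. After adjustment over all genes the values were 0.929 in females, 0.687 in males and 0.299 over both sexes (edgeR), so Ddit3 did not pass. A small gene on the same strand with the same symbol, ENSMUSG00000116429, overlaps its start and had 4 to 30 counts per library. This second identifier had a log2 difference of 0.81 in females (SE 0.27, edgeR adjusted p = 0.929). All its fKO values lay above all fWT values, and 0.349% of all genes had no overlap between these groups. It reached the 0.66 CPM of the filter in KO mice only, with at most 0.637 CPM in mWT and 0.511 CPM in fWT mice. Its values are therefore a description and no support for a change of Ddit3. Reads of the pair cannot be assigned with certainty, and Ddit3 also meets Mars, a tRNA synthetase gene on the other strand.

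Trib3, a pseudokinase that is induced by ATF4 and CHOP and restrains them (ENSMUSG00000032715, chromosome 2, 152337422 to 152344032, minus strand), had 2.26, 4.66 and 10.1 CPM in mWT, 4.48, 7.39 and 12.8 CPM in mKO, 3.25, 7.76 and 9.14 CPM in fWT and 4.0, 5.78 and 8.25 CPM in fKO mice. The log2 difference was 0.60 in males (SE 0.33, edgeR adjusted p = 0.543) and −0.28 in females (SE 0.32, edgeR adjusted p = 0.947). The difference between them was 0.88 (SE 0.46, edgeR adjusted p = 0.86). The male estimate corresponds to a ratio of 1.52, and the coefficient of variation among the mWT mice was 56.3%.

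Chac1, which degrades glutathione (ENSMUSG00000027313, chromosome 2, 119351229 to 119354381, plus strand), had 0.872, 3.57 and 6.36 CPM in mWT, 1.51, 3.09 and 6.66 CPM in mKO, 1.63, 2.20 and 4.85 CPM in fWT and 1.21, 4.03 and 6.14 CPM in fKO mice. Within groups it varied by up to a coefficient of 60.3%. The log2 difference was 0.00109 in males (SE 0.45) and 0.56 in females (SE 0.45, edgeR adjusted p = 0.934). At this spread a change of the size seen for Slc3a2 in males is smaller than 1 SE of Chac1.

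The largest difference among the members was the sex difference of Asns, asparagine synthetase, which makes asparagine from aspartate and glutamine (ENSMUSG00000029752, chromosome 6, 7675169 to 7693254, minus strand). It had 7.20, 14.8 and 32.7 CPM in mWT and 5.83, 10.1 and 20.5 CPM in mKO mice. In females it had 0, 0.321 and 0.769 CPM in fWT and 0.160, 0.226 and 0.532 CPM in fKO mice. The lowest male library held 88 counts and the highest female library 14 counts. Of the 12 female libraries, 9 held more than 3 counts and 1 held none, so the gene was near the limit of detection in females. Asns passed the filter through the males, in which it is high. On the female libraries alone it would not have been tested. Wildtype males had more by 5.75 on the log2 scale (SE 0.52, edgeR adjusted p = 3.91e-08), a fitted difference of 53.9-fold. Among KO mice it was 5.37 (SE 0.54, edgeR adjusted p = 2.54e-07), or 41.5-fold. No male overlapped a female in either genotype.

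Within males, Asns was not separated by genotype. Its mean was 17.7 ± 10.4 CPM in mWT and 11.2 ± 5.55 CPM in mKO mice (SD, n = 6), with a log2 difference of −0.67 (SE 0.35, edgeR adjusted p = 0.521), and 2 of 6 mKO mice lay below all mWT mice. In females the difference was −0.29 (SE 0.84, edgeR adjusted p = 0.981), a standard error that reflects a sum of 41 counts in fWT and 33 counts in fKO mice.

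**Figure D2:**
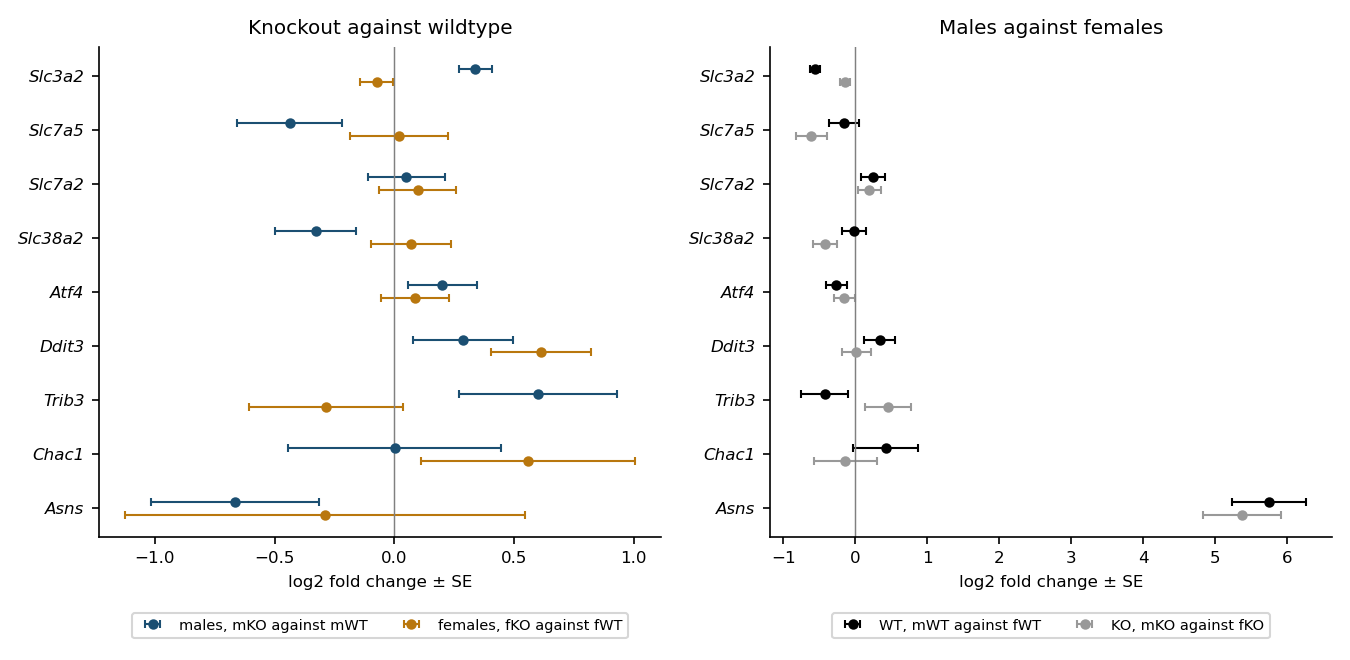
Fitted log2 fold changes ± SE (horizontal axes) of the 9 tested members; the left panel sets KO against WT in males (blue) and females (orange), the right panel males against females in WT (black) and KO mice (grey). Slc3a2 has the smallest errors and lies at 0.34 in males and −0.07 in females, and Asns stands apart in the right panel at 5.75 and 5.37.

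Counted over the members, the genotype comparisons gave little apart from Slc3a2. In mKO against mWT mice, none of the other 8 tested members reached an adjusted p-value under 0.05 with edgeR, which 0.211% of all 12330 genes reached. DESeq2 gave an adjusted p-value to 3 of the 8, none under 0.05, and its filter on low counts left the other 5 (Slc7a5, Ddit3, Trib3, Asns, Chac1) without one. None of the 8 was under 0.05 before adjustment, and so none under 0.01, where 3.52% of all genes were. In females 0 of 9 passed after adjustment with edgeR (0.0892% of all genes) or DESeq2, and 1, Ddit3, was under 0.05 and under 0.01 before it. Over both sexes 0 of the 8 passed after adjustment with either tool (0.17% of all genes with edgeR), and Ddit3 alone was under 0.05 before it. For the difference between sexes 0 of the 8 passed after adjustment with edgeR, where 0.00811% of all genes did, nor any of the 3 to which DESeq2 gave an adjusted value, and 0 were under 0.05 or 0.01 before it, where 1.16% of all genes were under 0.01. The median log2 difference of the 9 members, Slc3a2 included, was 0.05 in males and 0.07 in females, beside −0.00212 and −0.00264 over all genes. No member other than Slc3a2 had groups without overlap in males, where 1.09% of all genes had, nor any member in females, where 0.349% had. The second identifier of Ddit3, whose female groups did not overlap, is not counted as a member here. The separation of Slc3a2 in males is no test, given how the gene is taken to have been chosen.

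For sex, 1 of the 8 members other than Slc3a2, Asns, passed in WT mice, beside 17.3% of all genes, of which 8.51% were higher and 8.81% lower in males. In KO mice it was again Asns, 1 of 8, beside 14.4% of all genes, of which 7.26% were higher and 7.13% lower in males. Asns was also the one member of these 8 without overlap between the sexes, beside 7.7% of all genes in WT and 7.26% in KO mice. A share of 1 in 8 is near the background, and what sets Asns apart is the size of its difference. Asns also entered the test through the sex in which it is high.

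Sex differences were accompanied by differences in markers of other liver cells. Of all genes, 8.81% were lower and 8.51% higher in males in WT mice, and 7.13% and 7.26% in KO mice. The marker lists are short, so a single marker that passed does not set a cell type apart from these shares. In WT mice 3 of 4 Kupffer cell markers (Cd5l, Clec4f, Vsig4) were lower in males, with a summed level of 63.0 to 128 CPM in mWT and 114 to 211 CPM in fWT mice. Of the endothelial markers 2 of 4 (Clec4g, Stab2) and of the stellate markers 1 of 4 (Dcn) were lower too. Of the 4 genes listed for lymphocytes 2 were tested, and 1 was lower, Ptprc, which is not specific to lymphocytes. Of the 5 hepatocyte markers, 1 (Serpina1c) was higher in males and none lower, and their summed level had a median of 95734 CPM in mWT and 108571 CPM in fWT mice, with overlapping ranges. In KO mice both red blood cell markers were higher in males, at 42.5 to 79.0 CPM in mKO and 25.6 to 36.3 CPM in fKO mice. There 0 of 4 Kupffer cell markers passed, though all 4 estimates were negative (log2 differences of −0.59 to −0.35). The stellate markers Lrat and Dcn and the endothelial marker Stab2 were lower, and 2 of 5 hepatocyte markers (Serpina1c and Ttr) higher, in these males. The part of such shifts in the sex differences of Asns, Slc3a2 or Slc7a8 was not tested. Of the 23 tested markers none passed after adjustment with edgeR in mKO against mWT mice (3 under 0.05 before it) or in fKO against fWT mice (1 under 0.05).

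Other genes of the pathway showed little with genotype. None of the 15 genes of eIF2 and its kinases, the 5 partner factors, the 17 tested of 21 other ATF4 targets, the 20 cytosolic aminoacyl-tRNA synthetases and the 18 tested of 25 other plasma membrane amino acid transporters reached an adjusted p-value of 0.05 with edgeR in either sex, over both sexes or for the difference between sexes. DESeq2 called none of those to which it gave an adjusted value (60 of 75 in males, 75 in females, 67 over both sexes and 50 for the difference). Before adjustment, 9 of these 75 genes were under 0.05 in males (10.6% of all genes), 1 in females (4.87%), 6 over both sexes (9.57%) and 4 for the difference (5.96%). Median log2 differences in males were 0.02 for eIF2 and its kinases, −0.04 for the partner factors, −0.05 for the ATF4 targets, 0.01 for the synthetases and −0.11 for the transporters, of which 14 of 18 had a negative estimate. A few genes met the unadjusted cut-off. In males these were Tars (threonyl-tRNA synthetase, 0.40, SE 0.12, edgeR adjusted p = 0.167), Atf5 (a factor related to ATF4, 0.61, SE 0.20, edgeR adjusted p = 0.217), Slc1a5 (ASCT2, neutral amino acids including glutamine, −0.58, SE 0.18, edgeR adjusted p = 0.203) and Slc36a4 (a transporter of proline and tryptophan, −0.44, SE 0.14, edgeR adjusted p = 0.216). Atf5 had 93.7, 114 and 174 CPM in mWT and 131, 194 and 234 CPM in mKO mice. In females it was Eif2ak3, the kinase PERK of the endoplasmic reticulum, with 0.32 (SE 0.11, edgeR adjusted p = 0.929). Over both sexes Tars (0.25) and Slc1a5 (−0.39) met it, each with an edgeR adjusted p of 0.299.

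With sex, 18 of the 75 genes differed in WT mice, where 17.3% of all genes did, and 14 in KO mice, where 14.4% did. Of the synthetases, which charge tRNA with amino acids, 6 of 20 were higher in males in WT mice and 7 of 20 in KO mice, where 8.51% and 7.26% of all genes were, and none lower. Their median log2 difference was 0.19 in WT and 0.16 in KO mice, beside −0.00204 and −0.00448 over all genes, and 19 of 20 estimates were positive in each. Mars, the methionyl-tRNA synthetase, had the largest differences, 0.38 in WT (SE 0.08, edgeR adjusted p = 0.00133) and 0.44 in KO mice (SE 0.08, edgeR adjusted p = 3.19e-04). Nars, which charges tRNA with asparagine, was named after its values had been seen. It was higher by 0.28 (SE 0.06, edgeR adjusted p = 0.00118) and 0.27 (SE 0.06, edgeR adjusted p = 0.00228). A link between Nars and Asns was not tested.

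Of the other ATF4 targets, 3 of 17 were higher and 1 lower in wildtype males, beside 8.51% and 8.81% of all genes. Mthfd2, a mitochondrial enzyme of one-carbon metabolism, was higher by 1.26 (SE 0.27, edgeR adjusted p = 0.00167), at 0.934 to 2.12 CPM in mWT and 0.306 to 0.763 CPM in fWT mice. Psat1 and Psph, enzymes of serine synthesis, were higher by 1.02 (SE 0.30, edgeR adjusted p = 0.0178) and 0.58 (SE 0.14, edgeR adjusted p = 0.00641). Psat1 was low, at 0.586 to 1.31 CPM in mWT and 0.165 to 0.623 CPM in fWT mice. It reached the 0.66 CPM of the filter in males only (at most 0.627 CPM in fKO mice), the sex in which it is high. Vldlr, a lipoprotein receptor, was lower by 2.58 (−2.58, SE 0.39, edgeR adjusted p = 5.78e-05). In KO mice Mthfd2 (1.12, SE 0.26, edgeR adjusted p = 0.00434) and Vldlr (−1.64, SE 0.37, edgeR adjusted p = 0.00342) passed again. The list median was 0.03 in WT and 0.15 in KO mice. None of these came near the 5.75 of Asns.

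Among the other amino acid transporters, 5 of 18 were lower and none higher in wildtype males, and 4 of 18 lower and none higher in KO males, beside 8.81% and 7.13% of all genes that were lower. The estimates of 6 of 18 in WT and 4 of 18 in KO mice were positive. The median log2 difference was −0.25 in WT and −0.31 in KO mice. The largest in WT mice were Slc43a1 (LAT3, −0.77, SE 0.21, edgeR adjusted p = 0.015) and the light chain Slc7a8, followed by Slc16a10 (TAT1, aromatic amino acids, −0.54, SE 0.10, edgeR adjusted p = 4.57e-04) and Slc43a2 (LAT4, −0.51, SE 0.12, edgeR adjusted p = 0.00322). In KO mice they were Slc1a2 (a glutamate importer, −0.71, SE 0.14, edgeR adjusted p = 6.87e-04), Slc1a5 (−0.67, SE 0.18, edgeR adjusted p = 0.0108), Slc16a10 (−0.61, SE 0.10, edgeR adjusted p = 1.03e-04) and Slc43a2 (−0.44, SE 0.12, edgeR adjusted p = 0.0104). Of eIF2 and its kinases, Eif2ak3 and Eif2b3 were higher in wildtype males by 0.44 (SE 0.11, edgeR adjusted p = 0.00603) and 0.42 (SE 0.13, edgeR adjusted p = 0.0228). Eif2s3x, an eIF2 subunit encoded on the X chromosome, was lower in males by 0.52 in WT (−0.52, SE 0.06, edgeR adjusted p = 5.33e-07) and 0.58 in KO mice (−0.58, SE 0.06, edgeR adjusted p = 1.03e-07). Of the 5 partner factors none passed with edgeR in either genotype, while Atf3, an early stress factor, passed with DESeq2 in KO mice. Atf3 was lower in these males, with a median of 18.2 CPM (8.01 to 56.0) in mKO and 42.9 CPM (8.01 to 237) in fKO mice. All 6 immediate early genes examined (Fos, Fosb, Jun, Junb, Egr1, Ier2) also had negative estimates in both genotypes. Their medians were −0.65 in WT and −0.52 in KO mice, and 0 passed with edgeR.

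**Figure D3:**
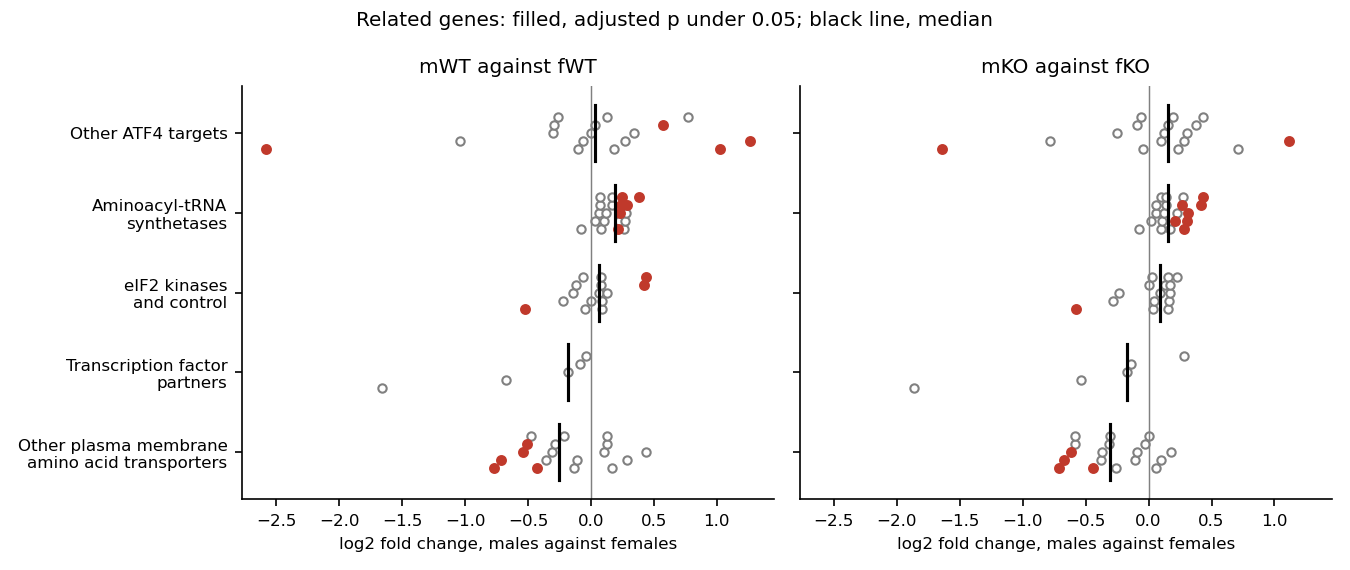
Log2 fold changes of males against females (horizontal axes) for the tested genes of 5 related lists, in WT (left) and KO mice (right); each point is a gene, filled red where the adjusted p-value was under 0.05, and black lines give list medians. Synthetases lie mostly to the right (medians 0.19 and 0.16) and transporters mostly to the left (−0.25 and −0.31).

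Finally, it was asked whether the members vary together from mouse to mouse. The group mean was removed from log2 CPM, and 36 pairs of the 9 members were compared over 24 mice with permutations within groups. Of the pairs 18 correlated positively and 18 negatively, with a median r of 0.00592. The closest pair was Slc38a2 and Chac1, with Pearson's r = 0.69 (permutation adjusted p = 0.0418) and Spearman's rho = 0.65 (permutation adjusted p = 0.102). The value was 0.80 over the 12 males and 0.42 over the 12 females, and 0.59 without the 2 mice farthest from the median of Slc38a2. In 11 of the 24 runs that left out a single mouse, the pair no longer passed after adjustment, so the call rests on individual mice of all 4 groups, while r stayed between 0.59 and 0.76.

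Ddit3 and Trib3, factor and target, had r = 0.56 (permutation adjusted p = 0.131, rho = 0.58, permutation adjusted p = 0.138), with 0.57 in males and 0.58 in females and 0.58 without the 2 farthest mice. Slc3a2 and Slc7a2 had r = −0.53 (permutation adjusted p = 0.133, rho = −0.53, permutation adjusted p = 0.157), and −0.47 without the 2 farthest mice. Atf4 mRNA followed none of its targets closely. Its 8 correlations lay between −0.35 and 0.19, the lowest with Slc7a2 and the highest with Slc3a2. Asns stayed at 0.28 or under with every other member over all 24 mice, and its highest value, with Chac1, was 0.63 over the 12 males and −0.16 over the 12 females, in which Asns is near the limit of detection. At 24 mice, an absence of correlation cannot be read from values that miss the test.

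**Figure D4:**
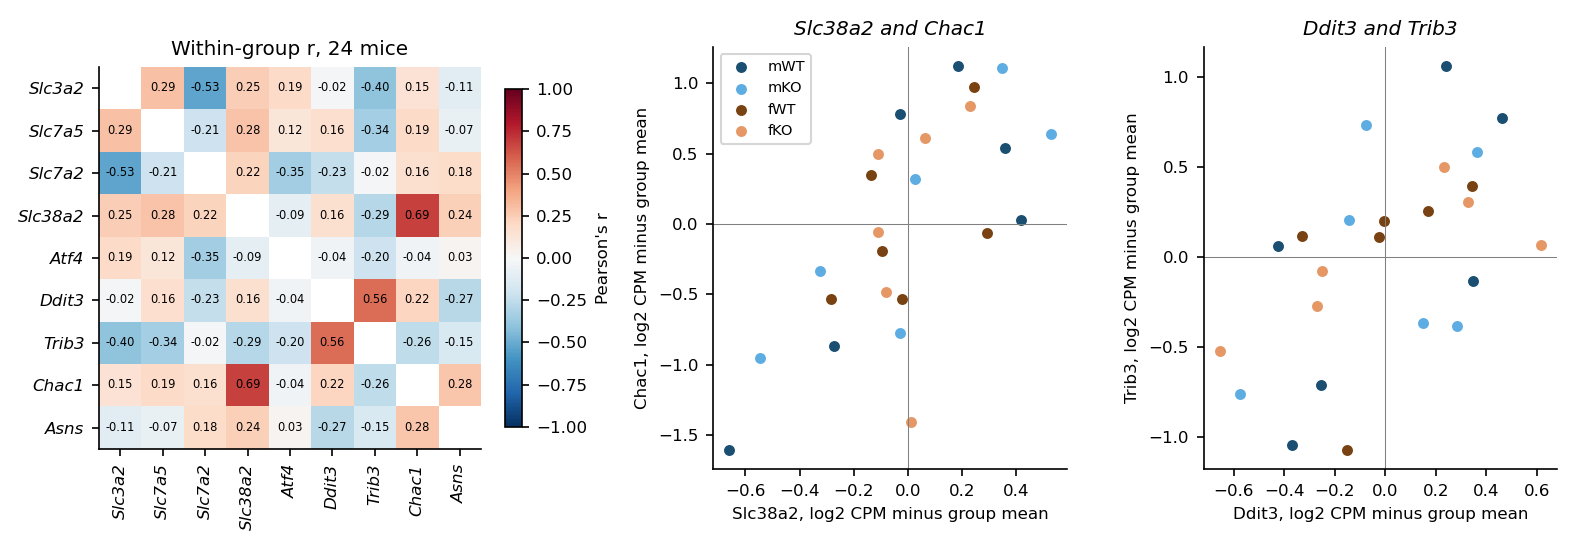
Left, Pearson's r between the 9 tested members over 24 mice after removal of group means (colour from −1 to 1); middle and right, the deviations from the group mean in log2 CPM of Slc38a2 against Chac1 and of Ddit3 against Trib3, one point per mouse, coloured by group. The 2 pairs reach 0.69 and 0.56, and the row of Atf4 stays between −0.35 and 0.19.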

How the data were processed

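Hepatic RNAseq of 24 mice was analysed. The authors deposited raw counts per Ensembl gene, one file per mouse, made from stranded mRNA libraries sequenced as single-end reads in one run. Per the submitters' processing notes they used bcl2fastq 2.19, fastp 0.20, STAR 2.7a and edgeR 3.28.1 with GRCm38.p6, and the study's methods name featureCounts for counting. The annotation release, the strand setting of the counting and the handling of multi-mapping reads are not given in the sources used here, so counts of overlapping genes are uncertain.

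Symbols and exon lengths came from GENCODE M21 (GRCm38), which matched 25635 of 25746 genes. No read was counted for 7064 of the listed genes. The filter required 0.66 CPM or more in 6 or more of the 24 libraries and kept 12330 genes, libraries were scaled by TMM, and the quasi-likelihood test of edgeR 4.0.16 (R 4.3.3, robust dispersions, legacy deviances) was fitted to all 24 libraries with a mean per group. P-values were adjusted after Benjamini-Hochberg over all 12330 genes. The unadjusted cut-off of 0.01 is that of the study. CPM are TMM-scaled, and CPM per kb divides by the union of exons. Correlations used log2 CPM with a prior count of 2 and 100000 two-sided permutations within groups, adjusted over 36 pairs. Figures were drawn with matplotlib 3.10.9.

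The members, the related gene lists and the markers were chosen with earlier results of these data known. All members are reported. From the related lists the text names the genes with an unadjusted p-value under 0.01 in a genotype comparison and up to 4 per list with the largest change for sex, and further genes that are marked or that were named beside a result. Nars, Psph, Atf3, Eif2ak3 and Eif2b3 were named after their values were seen.

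The total count per mouse was 15361901 to 26261394, and 3 counts, taken as the smallest detectable amount, equal 0.113 to 0.199 CPM. This covers counting error only, since reads carry no molecular identifiers. All pairs of mice within groups differed beyond sampling noise (lowest chi-square per gene 8.16). The test was checked on simulated counts with known changes. Alternatives were DESeq2 1.42.0, its size factors, 3 other filters, non-robust dispersions, the deviances of edgeR 4, fits of the 2 groups compared, removal of the Mup genes, a replicate block, each mouse left out in turn, a prior count of 0.5 and the motif TGATGCAA.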

Additional observations from a re-analysis of the deposited data

Results flagged for a closer look

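In 4 of 36 sets of 6 mice (9 members in 4 groups), a single mouse stood far from the rest by Dixon's criterion, its gap to the nearest mouse exceeding 0.625 of the range. Chance flags about 1 in 20 such sets. In fWT mouse 6, Slc3a2 was at 39.7 CPM where the other 5 mice had 33.8 to 35.4 CPM. The same mouse had 3.25 CPM of Trib3, where the others had 7.51 to 9.14 CPM. In mWT mouse 1, Slc7a2 was at 1538 CPM against 1088 to 1227 CPM in the others. In fKO mouse 1, Asns was at 0.532 CPM against 0.160 to 0.274 CPM, a value that rests on 10 counts. Leaving out each mouse in turn, fWT mouse 6 among them, gave log2 sex differences of Slc3a2 in WT mice of −0.57 to −0.52. Slc3a2 aside, which is not tested there, no member had a difference of the KO effect between the sexes with an edgeR adjusted p-value under 0.05.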

How the results depend on the processing

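The sex differences of Asns (5.48 to 6.13 in WT, 5.12 to 5.66 in KO mice) kept sign and call under each of the 34 alternatives. Slc3a2 kept its sign in WT mice for sex (−0.57 to −0.52) and in males for genotype (0.30 to 0.37). It missed the threshold by which it is taken to have been chosen in 9 of 34: with the 2 groups alone, without the Mup genes, with the replicate block, and without mWT mouse 3 or 6 or mKO mouse 3, 4, 5 or 6. DESeq2 gave more genes with an adjusted p-value under 0.05: 139 against 26 in males, 18 against 11 in females, 50 against 21 over both sexes and 11 against 1 for the difference. With only the groups of each sex, the male count was 48. Without the Mup genes, which held most calls, the counts were 2 in males, 0 in females and 1 over both sexes, with 415, 85 and 337 genes at the unadjusted cut-off. With each mouse left out, the male counts were 19 to 60 (60 without mWT mouse 1 and 43 without mWT mouse 2) and 285 to 522 at the unadjusted cut-off (285 without mWT mouse 5), and the unadjusted count over both sexes 225 to 472 (225 without fKO mouse 2). The sex difference of Slc7a5 in KO mice passed with DESeq2 (adjusted p = 0.0345), edgeR 4 deviances (0.0497), the 2 groups alone (0.0439), and without mWT mouse 1, 2 or 4, mKO mouse 4, fWT mouse 6 or fKO mouse 6, and that of Slc38a2 without mKO mouse 4. Estimates near 0 changed sign: Chac1 in males was −0.00107 with DESeq2 and −0.00101 without the Mup genes.

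Leaving out single mice turned the sign of these uncalled log2 differences, with ranges of Slc7a2 in males −0.042 to 0.13, Chac1 in males −0.31 to 0.27, Slc7a2 in females −0.023 to 0.20, Slc7a5 in females −0.067 to 0.088, Atf4 in females −0.0079 to 0.16, Asns in females −0.57 to 0.091, Slc7a2 for the difference between sexes −0.15 to 0.072, Slc38a2 for sex in WT −0.11 to 0.089, Ddit3 for sex in KO −0.094 to 0.16 and Chac1 for sex in KO −0.45 to 0.034. The pair count of 1 became 0 without mWT mouse 2, 3, 4 or 5, mKO mouse 1, 3, 4 or 6, fWT mouse 2 or 6, or fKO mouse 6. With TGATGCAA, 2 promoter windows matched instead of 4.

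The mouse numbers of the labels mark different animals and did not pair them, since mice that share a number deviated together with r from −0.34 to 0.17, over 0.1 in 1 or 2 of 6 pairs. With the replicate block the counts of genes with an adjusted p-value under 0.05 were 26 in males, 16 in females, 23 over both sexes, 1 for the difference, 1747 for sex in WT and 1374 in KO mice. Under it Slc38a2 differed by sex in KO mice (−0.46, adjusted p = 0.0209).

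Depth limits Slc7a11 and Asns in females, whose counts lie near 3, and members with under 100 counts per library (Slc7a5, and in most libraries Ddit3 and Chac1). Changes under about 2 SE could not be seen even before adjustment, and calls after adjustment needed larger ones. In mKO against mWT mice, Pnp at 0.60 (SE 0.13) lay outside the adjusted threshold. Over both sexes, Ddit3 at 0.45 (SE 0.15) had an edgeR adjusted p of 0.299.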
